A study of Mus musculus with 9 samples.

Results

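Aminoacyl-tRNA synthetases are the enzymes that attach each amino acid to its tRNA, the step that fixes the genetic code during translation. The mRNA of 36 of them was followed in 9 mouse hearts: 20 genes for enzymes of the cytosol and 16 genes for enzymes of mitochondria, whose symbols carry the suffix 2. They were picked by gene symbol from 43154 genes listed for each heart, by a rule that uses symbols and no measured value. The set itself was chosen with earlier results of these data known. mRNA libraries had been sequenced from hearts of C57BL/6 mice that carry an activated calcineurin transgene (MHC-CnATg), an established model of cardiac hypertrophy and failure, and from wild type mice. The comparisons address what the transgene does to the heart's transcriptome and whether JIB-04, an inhibitor of Jumonji histone demethylases, changes it.

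The first group was 2 hearts of transgenic mice given JIB-04, collected on postnatal day 125 (heart 1) and day 158 (heart 2). The second was 3 hearts of transgenic mice given vehicle, collected on day 125 (heart 1) and day 158 (hearts 2 and 3). The compound was dosed at 50 mg/kg with 3 doses in each week, and dosing began when the mice were 4 weeks old. The third was 4 hearts of wild type mice given vehicle, from day 125 (hearts 1 and 2) and day 158 (hearts 3 and 4). The transgene is driven by a myosin heavy chain (MHC) promoter, which acts in cardiomyocytes, so other cells of the heart do not carry the primary change. No wild type heart given JIB-04 was analysed here, so an effect of the compound without the transgene cannot be read. Levels are given as FPKM, fragments scaled to transcript length and library size, calculated back from the deposited log2 values. Fold changes are differences in log2(FPKM + 1), a scale that understates the change of low genes.

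Cytosolic and mitochondrial synthetases are both encoded in the nucleus, mostly by separate genes. The cytosolic enzymes serve translation of nuclear transcripts, and several of them sit together in the multisynthetase complex. The mitochondrial enzymes serve the ribosomes that make the respiratory chain subunits encoded by mitochondrial DNA, on which the heart depends heavily. Many cytosolic synthetase genes are known targets of ATF4, the transcription factor of the integrated stress response. The lysine enzyme (Kars) and the glycine enzyme (Gars) are each made for both compartments from a single gene.

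The labels were checked with Ppp3ca, which encodes the calcineurin catalytic subunit alpha, and with Rcan1, a calcineurin target. Ppp3ca was between 198.7 and 1762 FPKM in the 5 transgenic hearts and between 22.9 and 24.8 FPKM in the 4 wild type hearts (exact two-sided permutation p = 0.0079, the smallest that these numbers allow). Rcan1 was between 72.8 and 169.4 FPKM in transgenic hearts and between 25.6 and 29.4 FPKM in wild type hearts (exact two-sided permutation p = 0.0079). Transgenic vehicle heart 3 stood apart, with the lowest Ppp3ca of the transgenic hearts. That heart and JIB-04 heart 2 had the largest shares of summed FPKM on the mitochondrial chromosome, at 29.8% and 30.9%, with the other hearts at 26.3% or less. The comparisons with wild type are therefore also given without transgenic vehicle heart 3 and JIB-04 heart 2, a setting that leaves 1 JIB-04 heart. Relative depth, estimated from the steps between low values, ranged from 1.0 to 1.495 over the hearts and total counts were not used here. All 10 cardiomyocyte markers were detected in every heart, with summed FPKM of 16560 to 18360 in JIB-04 hearts, 16360 to 19130 in transgenic vehicle hearts and 20700 to 24590 in wild type hearts.

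All 36 synthetases passed the filter of at least 1 FPKM in at least 2 hearts, with 13487 genes tested. In wild type hearts the median level was 19.1 FPKM for the cytosolic genes and 11.7 FPKM for the mitochondrial genes. Over all hearts, cytosolic means ran from 9.75 FPKM (Cars, the cysteine enzyme) to 46.9 FPKM (Kars), and mitochondrial means from 1.80 FPKM (Mars2, the methionine enzyme) to 54.1 FPKM (Lars2, the leucine enzyme).

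In transgenic hearts given vehicle, set against wild type hearts, most calls among cytosolic enzymes were rises and all calls among mitochondrial enzymes were falls. Of 20 cytosolic synthetases, 8 were higher and 1 was lower at an adjusted p under 0.05 (limma, Benjamini-Hochberg over all genes tested). Of 16 mitochondrial synthetases, 0 were higher and 5 were lower. Over all genes tested, 2739 (20.3%) were called higher and 2123 (15.7%) lower in this comparison. The p-values measure the spread between these hearts. The median log2 fold change was 0.14 over the cytosolic genes and -0.23 over the mitochondrial genes, against 0.05 over all genes tested. Without transgenic vehicle heart 3 and JIB-04 heart 2, 6 cytosolic members were called higher and 1 lower, and 3 mitochondrial members were called lower. The cytosolic count of 9 was 5 without transgenic vehicle heart 1, the single removal that moved it by over 1.5 times. The mitochondrial count of 5 was 3 without wild type heart 1 and 1 without wild type heart 4, and without transgenic vehicle heart 1 it was 3 lower and 1 higher (Lars2). The groups did not overlap, with transgenic vehicle higher, in 9 cytosolic and 0 mitochondrial members, against 23.4% of all genes. They did not overlap, with transgenic vehicle lower, in 1 cytosolic and 6 mitochondrial members, against 17.7% of all genes.

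**Figure D1:**
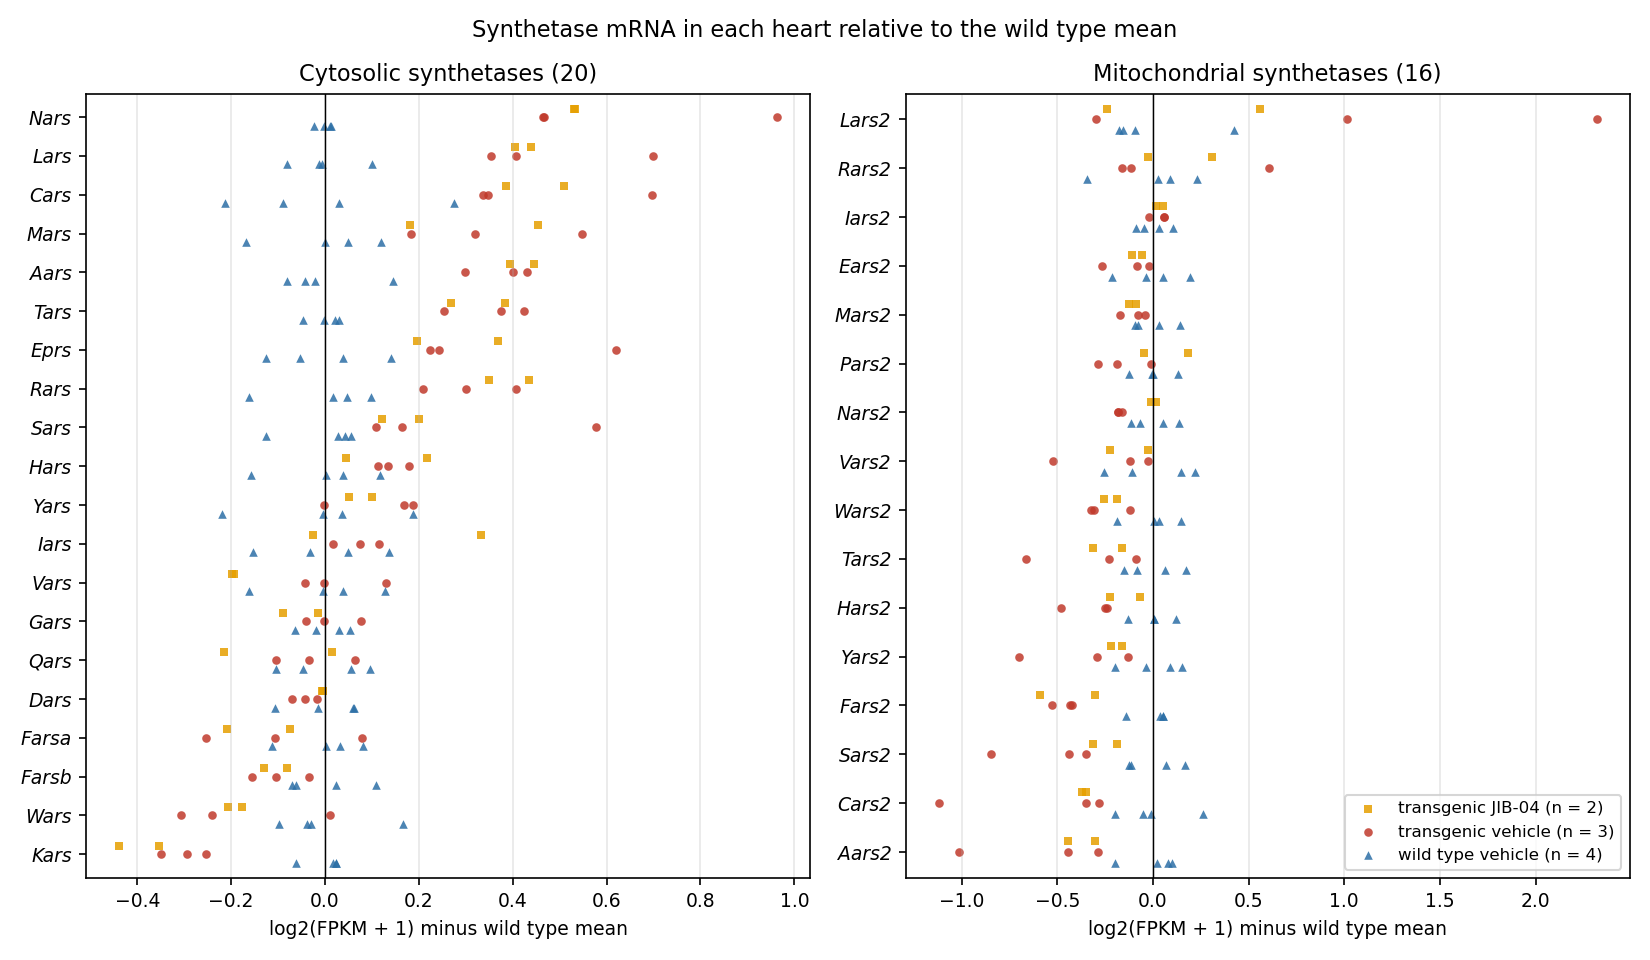
Each point is 1 heart, plotted as log2(FPKM + 1) minus the mean of the 4 wild type hearts, with 20 cytosolic synthetases on the left and 16 mitochondrial ones on the right, ordered by the fold change of transgenic vehicle hearts. Orange squares are the 2 JIB-04 hearts, red circles the 3 transgenic vehicle hearts and blue triangles the 4 wild type hearts. The transgenic points of the upper cytosolic genes lie right of 0 and those of the lower mitochondrial genes left of 0, and Lars2 has the widest spread.

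Among cytosolic enzymes the asparagine enzyme Nars had the largest difference. Its level was 41.7, 41.7 and 59.3 FPKM in transgenic vehicle hearts 1 to 3, against 30.2, 29.5, 29.9 and 30.2 FPKM in wild type hearts 1 to 4. All transgenic vehicle hearts were above all wild type hearts, with heart 3 highest, and the wild type hearts were nearly level. Nars rose 1.59-fold by group means, with a log2 fold change of 0.62 ± 0.12 (SE) and an adjusted p of 0.00546. The leucine enzyme Lars, a sensor of leucine as well as a synthetase, was at 17.9, 18.6 and 23.0 FPKM in transgenic vehicle hearts and at 13.0, 13.7, 14.9 and 13.7 FPKM in wild type hearts. The groups did not overlap, and Lars rose by 0.47 ± 0.09 on the log2 scale (adjusted p = 0.00483). Cars had 10.3, 10.2 and 13.4 FPKM in transgenic vehicle hearts and 6.64, 9.71, 8.04 and 7.32 FPKM in wild type hearts. Its groups came close to each other at wild type heart 2, and the call was near the threshold, with a log2 fold change of 0.46 ± 0.14 and an adjusted p of 0.0358. The call of Cars was lost without any one of 7 hearts, which were all but transgenic vehicle heart 2 and wild type heart 2 (adjusted p = 0.0568 to 0.101).

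The methionine enzyme Mars, which also charges the initiator tRNA, was at 28.9, 22.2 and 24.6 FPKM in transgenic vehicle hearts and at 19.5, 21.2, 20.2 and 17.2 FPKM in wild type hearts. Transgenic vehicle heart 2 lay only just above the highest wild type heart. Mars rose by 0.39 ± 0.09 on the log2 scale (adjusted p = 0.01), and without transgenic vehicle heart 1 the adjusted p was 0.0644. The alanine enzyme Aars was at 17.5, 18.9 and 19.3 FPKM in transgenic vehicle hearts and at 13.6, 13.8, 13.2 and 15.6 FPKM in wild type hearts. The 3 transgenic values were close together and above every wild type value, and Aars rose by 0.36 ± 0.07 (adjusted p = 0.00684). The threonine enzyme Tars had 13.4, 14.6 and 15.2 FPKM in transgenic vehicle hearts and 11.2, 11.04, 10.7 and 11.3 FPKM in wild type hearts. Here too no heart of one group reached the other, and Tars rose by 0.34 ± 0.07 (adjusted p = 0.00684). The remaining calls with a rise were Eprs, a single protein that charges both glutamate and proline tRNAs, at 0.33 ± 0.10 (adjusted p = 0.0312), and the arginine enzyme Rars at 0.29 ± 0.08 (adjusted p = 0.0279). Eprs was no longer called without any one of 7 hearts, all but transgenic vehicle hearts 2 and 3 (adjusted p = 0.0511 to 0.107). Rars was no longer called without transgenic vehicle heart 1 or 2 or wild type heart 1 or 3 (adjusted p = 0.0615 to 0.132).

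Kars was the exception among cytosolic enzymes. It was at 43.2, 41.5 and 44.4 FPKM in transgenic vehicle hearts, against 50.8, 54.0, 54.0 and 53.8 FPKM in wild type hearts. Every transgenic vehicle heart lay below every wild type heart. Kars fell by 0.30 on the log2 scale (SE 0.06, adjusted p = 0.0087), and with the hearts scaled to equal summed FPKM its log2 fold change was -0.08 (adjusted p = 0.575). Gars, the other enzyme made for both compartments, had a log2 fold change of 0.02 (95% interval -0.14 to 0.17). Of the cytosolic members, 11 were not called, with log2 fold changes from -0.18 (the tryptophan enzyme Wars) to 0.27 (the serine enzyme Sars, adjusted p = 0.11). The histidine enzyme Hars had a log2 fold change of 0.16 (adjusted p = 0.108), and the other uncalled ones were Dars (aspartate), Qars (glutamine), Iars (isoleucine), Vars (valine), Yars (tyrosine), and Farsa and Farsb, the subunits of the phenylalanine enzyme.

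The cytosolic set can be divided by place in the multisynthetase complex. Of 8 enzymes held in the complex, 4 rose (Lars, Mars, Eprs and Rars) and 1 fell (Kars), with a median log2 fold change of 0.17. Of 12 enzymes outside it, 4 rose (Nars, Cars, Aars and Tars) and 0 fell, with a median of 0.14. It can also be divided by textbook ATF4 targets. Of 12 synthetases commonly described as ATF4 responsive, 7 rose and 0 fell, with a median of 0.34, while of the 8 others 1 rose and 1 fell, with a median of -0.03. Gars, Iars, Sars, Wars and Yars were the ATF4 responsive members not called. All counts of these subgroups are to be read against 20.3% of all genes called higher and 15.7% lower. Without transgenic vehicle heart 3 and JIB-04 heart 2, 3 rose and 1 fell in the complex, 3 rose and 0 fell outside it, 5 of 12 ATF4 responsive members rose and 0 fell, and 1 of the others rose and 1 fell. The difference between these subgroups was not tested, since the lists were drawn up with earlier results of these data known.

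The mitochondrial alanine enzyme Aars2 was at 7.52, 6.64 and 4.16 FPKM in transgenic vehicle hearts, against 10.2, 9.97, 8.06 and 9.53 FPKM in wild type hearts. All transgenic vehicle hearts were below all wild type hearts, heart 3 most of all. Aars2 fell by 0.54 on the log2 scale (SE 0.14, adjusted p = 0.0199), to 0.648 of the wild type mean, and its adjusted p was 0.0659 without wild type heart 4. The cysteine enzyme Cars2 had 16.2, 15.4 and 8.61 FPKM in transgenic vehicle hearts and 19.7, 24.0, 17.2 and 19.1 FPKM in wild type hearts. Transgenic vehicle heart 1 and wild type heart 3 were close to each other, and Cars2 fell by 0.54 (SE 0.18, adjusted p = 0.0491), the call nearest to the threshold, which was lost without any one of 7 hearts, all but transgenic vehicle hearts 2 and 3 (adjusted p = 0.0638 to 0.125). Without transgenic vehicle heart 3 it stayed called with a smaller log2 fold change of -0.31 (adjusted p = 0.0483). The serine enzyme Sars2 had 4.43, 4.12 and 2.86 FPKM in transgenic vehicle hearts and 6.27, 5.36, 5.395 and 6.79 FPKM in wild type hearts. The groups were apart, and Sars2 fell by 0.53 (SE 0.14, adjusted p = 0.0178), with an adjusted p of 0.0551 without wild type heart 4.

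The phenylalanine enzyme Fars2 gave the smallest adjusted p of the mitochondrial set. It was at 25.9, 26.0 and 24.1 FPKM in transgenic vehicle hearts, against 36.5, 36.6, 31.9 and 36.1 FPKM in wild type hearts. The 3 transgenic values were nearly equal and well below the lowest wild type heart. Fars2 fell by 0.44 on the log2 scale (SE 0.08, adjusted p = 0.00366). The histidine enzyme Hars2 had 11.5, 11.6 and 9.69 FPKM in transgenic vehicle hearts and 15.3, 14.0, 12.6 and 14.0 FPKM in wild type hearts. Its groups did not overlap, and Hars2 fell by 0.30 (SE 0.08, adjusted p = 0.0241), a call lost without transgenic vehicle heart 1, wild type heart 1 or wild type heart 4 (adjusted p = 0.0594 to 0.099). With equal summed FPKM, where the median of all genes moved to 0.24, none of the 5 was called, and their log2 fold changes were -0.34 for Aars2, -0.33 for Cars2, -0.34 for Sars2, -0.22 for Fars2 and -0.10 for Hars2. Relative to the median of all genes, the mitochondrial median stood at -0.28 on the deposited scale and at -0.28 with equal totals, and the cytosolic median at 0.09 and 0.12.

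The other 11 mitochondrial members were not called. The tyrosine enzyme Yars2 had a log2 fold change of -0.34 (adjusted p = 0.0592) and the threonine enzyme Tars2 of -0.28 (adjusted p = 0.0768). Wars2 (tryptophan), Vars2 (valine), Nars2 (asparagine), Pars2 (proline), Mars2 and Ears2 (glutamate) also had values below 0, and Iars2 (isoleucine), Rars2 (arginine) and Lars2 had values above 0. Lars2 is described here because its spread was seen to be wide, and it is outside the rule for named genes. It was at 27.4, 69.6 and 173.2 FPKM in transgenic vehicle hearts, against 29.9, 45.8, 30.3 and 31.7 FPKM in wild type hearts. Transgenic vehicle heart 1 was the lowest of these 7 hearts and hearts 2 and 3 were the highest, so the groups overlapped. The log2 fold change was 0.96, with a 95% interval from -0.26 to 2.19 (adjusted p = 0.195), and it was 1.88 without transgenic vehicle heart 1 (adjusted p = 0.0154) and 0.36 without heart 3 (adjusted p = 0.498). Because of Lars2, the summed level of the 16 mitochondrial genes was 191.9 to 316.3 FPKM in transgenic vehicle hearts and 211.3 to 245.6 FPKM in wild type hearts. Without Lars2 the sum was 143.1 to 164.5 FPKM in transgenic vehicle hearts and 181.0 to 199.8 FPKM in wild type hearts.

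**Figure D2:**
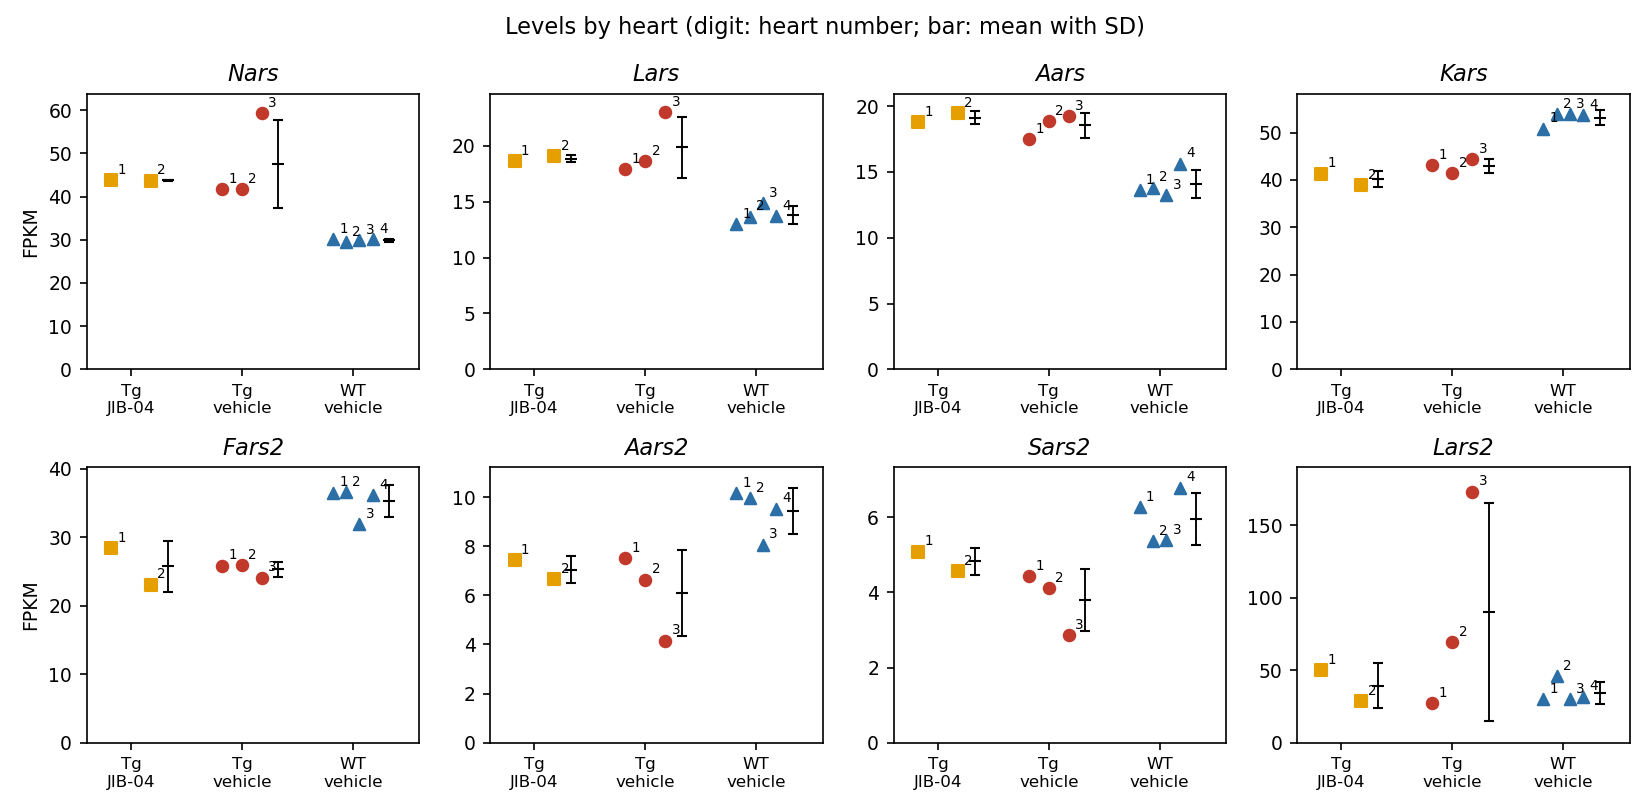
FPKM of 4 cytosolic genes (upper panels) and 4 mitochondrial genes (lower panels) in every heart, with JIB-04 hearts as orange squares, transgenic vehicle hearts as red circles and wild type hearts as blue triangles. The digit beside a point is the heart number and the black bar is the group mean with its SD (n = 2, 3 and 4). Nars, Lars and Aars are higher and Kars, Fars2, Aars2 and Sars2 lower in transgenic vehicle hearts, while Lars2 reaches 173.2 FPKM in transgenic vehicle heart 3.

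Transgenic vehicle heart 3 was the highest of its group in 10 of 20 cytosolic genes and the lowest in 11 of 16 mitochondrial genes. Relative to the wild type means, the median shift of the cytosolic genes was 0.15, 0.15 and 0.10 in transgenic vehicle hearts 1 to 3. That of the mitochondrial genes was -0.17, -0.20 and -0.40. Over all genes tested the shift of these hearts was 0.03, 0.06 and 0.03. Heart 3 had the lowest mitochondrial median, and among wild type hearts the mitochondrial median ran from -0.13 (heart 3) to 0.05. On day 125 the genotype difference had a median of 0.13 in the cytosolic and -0.23 in the mitochondrial set, and on day 158 of 0.15 and -0.25. The sign was the same on both days for 16 of 20 cytosolic and 12 of 16 mitochondrial members. The difference between the days was called in 0 of 36 members (limma interaction, unadjusted p under 0.05 in 1) and in 1 of 13487 genes, in a design with 1 transgenic vehicle heart on day 125. Day itself was called in 0 of 36, against 0.156% of all genes called higher and 0.222% lower on day 158.

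A ratio within a heart does not depend on how that heart was scaled. For 16 amino acids the cytosolic gene was divided by the mitochondrial gene for the same amino acid in each heart, with Eprs used for glutamate and for proline and Farsa for phenylalanine. In transgenic vehicle hearts the mean log2 ratio was above that of wild type hearts for 15 of 16 amino acids, the exception being leucine, and the median difference was 0.52. For 8 amino acids every transgenic vehicle heart was above every wild type heart, and for 0 the reverse held. The ratio Aars to Aars2 was 2.33, 2.84 and 4.64 in transgenic vehicle hearts, against 1.34, 1.39, 1.64 and 1.64 in wild type hearts. The ratio Cars to Cars2 was 0.634, 0.662 and 1.55 in transgenic vehicle hearts, against 0.337, 0.405, 0.468 and 0.383 in wild type hearts. Both ratios were thus higher in all 3 transgenic vehicle hearts, and the mRNA of the cytosolic cysteine enzyme exceeded that of its mitochondrial counterpart in heart 3 alone. The other non-overlapping amino acids were serine (difference 0.95), asparagine (0.85), threonine (0.73), methionine (0.52), histidine (0.50) and phenylalanine (0.38). These ratios are a description without a test, since many of their parts were already counted above. Single genes lay apart on the higher side in 23.4% and on the lower side in 17.7% of all genes. The share over other pairs of genes was not calculated, so how unusual these counts are cannot be read.

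**Figure D3:**
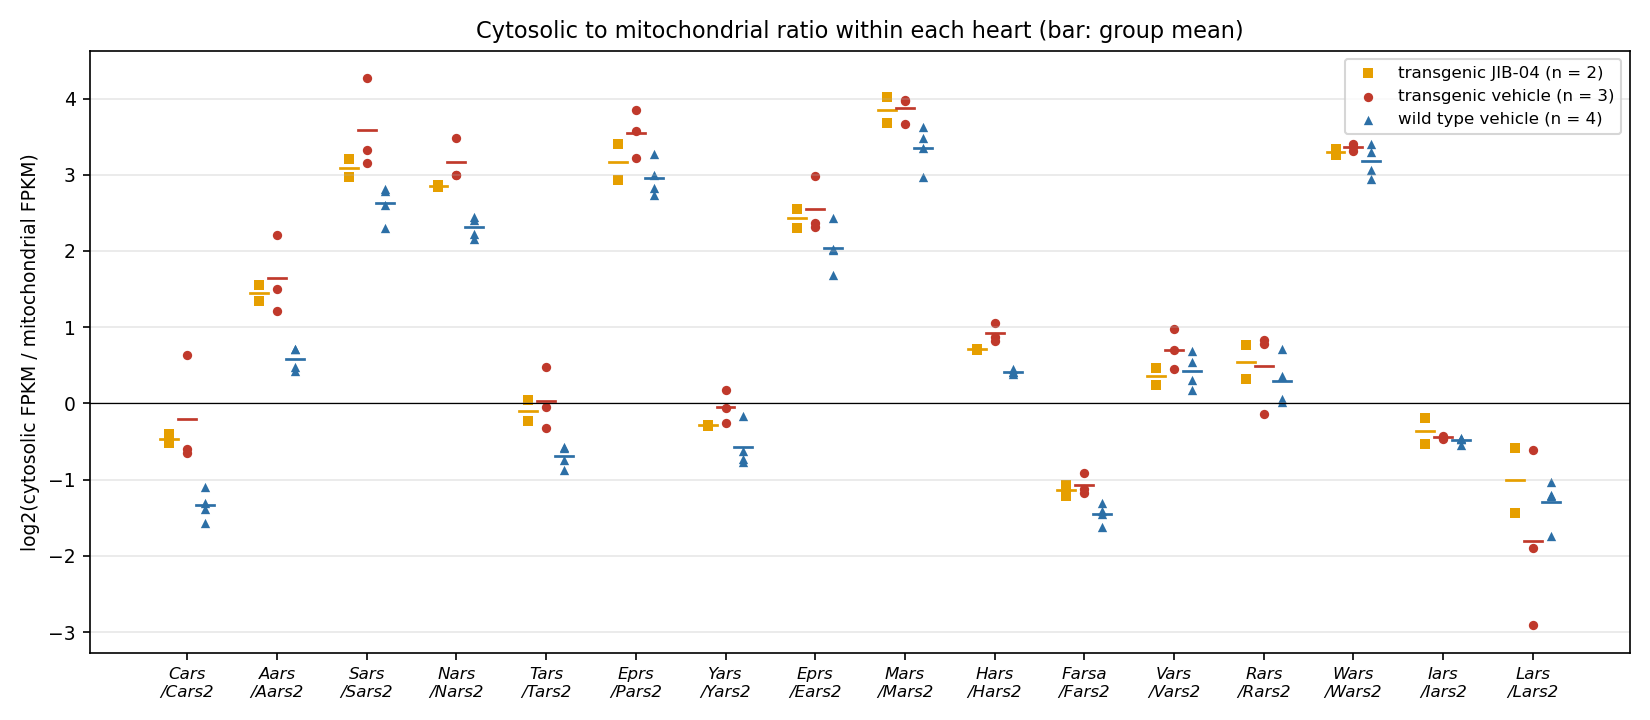
Log2 ratio of cytosolic to mitochondrial FPKM for 16 amino acids, 1 point per heart and a short bar for each group mean, with JIB-04 hearts (orange squares) left, transgenic vehicle hearts (red circles) in the middle and wild type hearts (blue triangles) right. Pairs are ordered by the difference between transgenic vehicle and wild type hearts, from Cars/Cars2 at 1.13 to Lars/Lars2 at -0.51.

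JIB-04 was compared with vehicle among transgenic hearts, and no synthetase was called. Of 20 cytosolic and 16 mitochondrial members, 0 passed in either direction by limma, and 0 had an unadjusted p under 0.05. Only 1 gene of all tested was called higher in this comparison, which is 0.00741%, and 0 (0.00%) were called lower, while 3.29% had an unadjusted p under 0.05. The median log2 fold change was -0.05 over the cytosolic and 0.07 over the mitochondrial members, against -0.01 over all genes tested. Leaving out transgenic vehicle heart 3 gave medians of 0.001 and -0.007. With 2 hearts against 3, the 95% intervals of cytosolic members ran at their widest down to -0.46 (Vars) and up to 0.37 (Cars), and that of Lars2 from -2.26 to 0.66.

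The smallest unadjusted p among cytosolic members was that of Vars, at 0.0715 (adjusted p = 0.987). Vars had 10.8 and 10.8 FPKM in JIB-04 hearts and 13.8, 12.5 and 12.1 FPKM in transgenic vehicle hearts. Both JIB-04 hearts lay below all transgenic vehicle hearts, as in 6.88% of all genes, and the log2 fold change was -0.22 (95% interval -0.46 to 0.02). Kars was at 41.3 and 39.0 FPKM in JIB-04 hearts and at 43.2, 41.5 and 44.4 FPKM in transgenic vehicle hearts, with an interval of -0.28 to 0.08. Iars was at 17.1 and 22.2 FPKM in JIB-04 hearts and at 17.6, 18.9 and 18.4 FPKM in transgenic vehicle hearts, with an interval of -0.10 to 0.33. The JIB-04 values of Kars were thus just below the transgenic vehicle values, while those of Iars lay on either side of them.

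Among mitochondrial members Pars2 had 3.85 and 3.13 FPKM in JIB-04 hearts and 3.24, 2.499 and 2.75 FPKM in transgenic vehicle hearts (log2 fold change 0.20, 95% interval -0.03 to 0.43). Nars2 had 5.99 and 6.12 FPKM in JIB-04 hearts, 5.21, 5.22 and 5.30 FPKM in transgenic vehicle hearts, and 5.72, 6.30, 5.50 and 6.74 FPKM in wild type hearts. Both JIB-04 hearts lay among the wild type values and above the transgenic vehicle hearts, with a log2 fold change against transgenic vehicle of 0.18 (95% interval -0.05 to 0.41). Sars2 had 5.08 and 4.57 FPKM in JIB-04 hearts and 4.43, 4.12 and 2.86 FPKM in transgenic vehicle hearts (log2 fold change 0.28, 95% interval -0.09 to 0.65). In 3 mitochondrial members (Nars2, Sars2 and Hars2) both JIB-04 hearts were above all transgenic vehicle hearts, which held for 5.55% of all genes. None of these differences passed the adjusted test, and their intervals include 0.

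**Figure D4:**
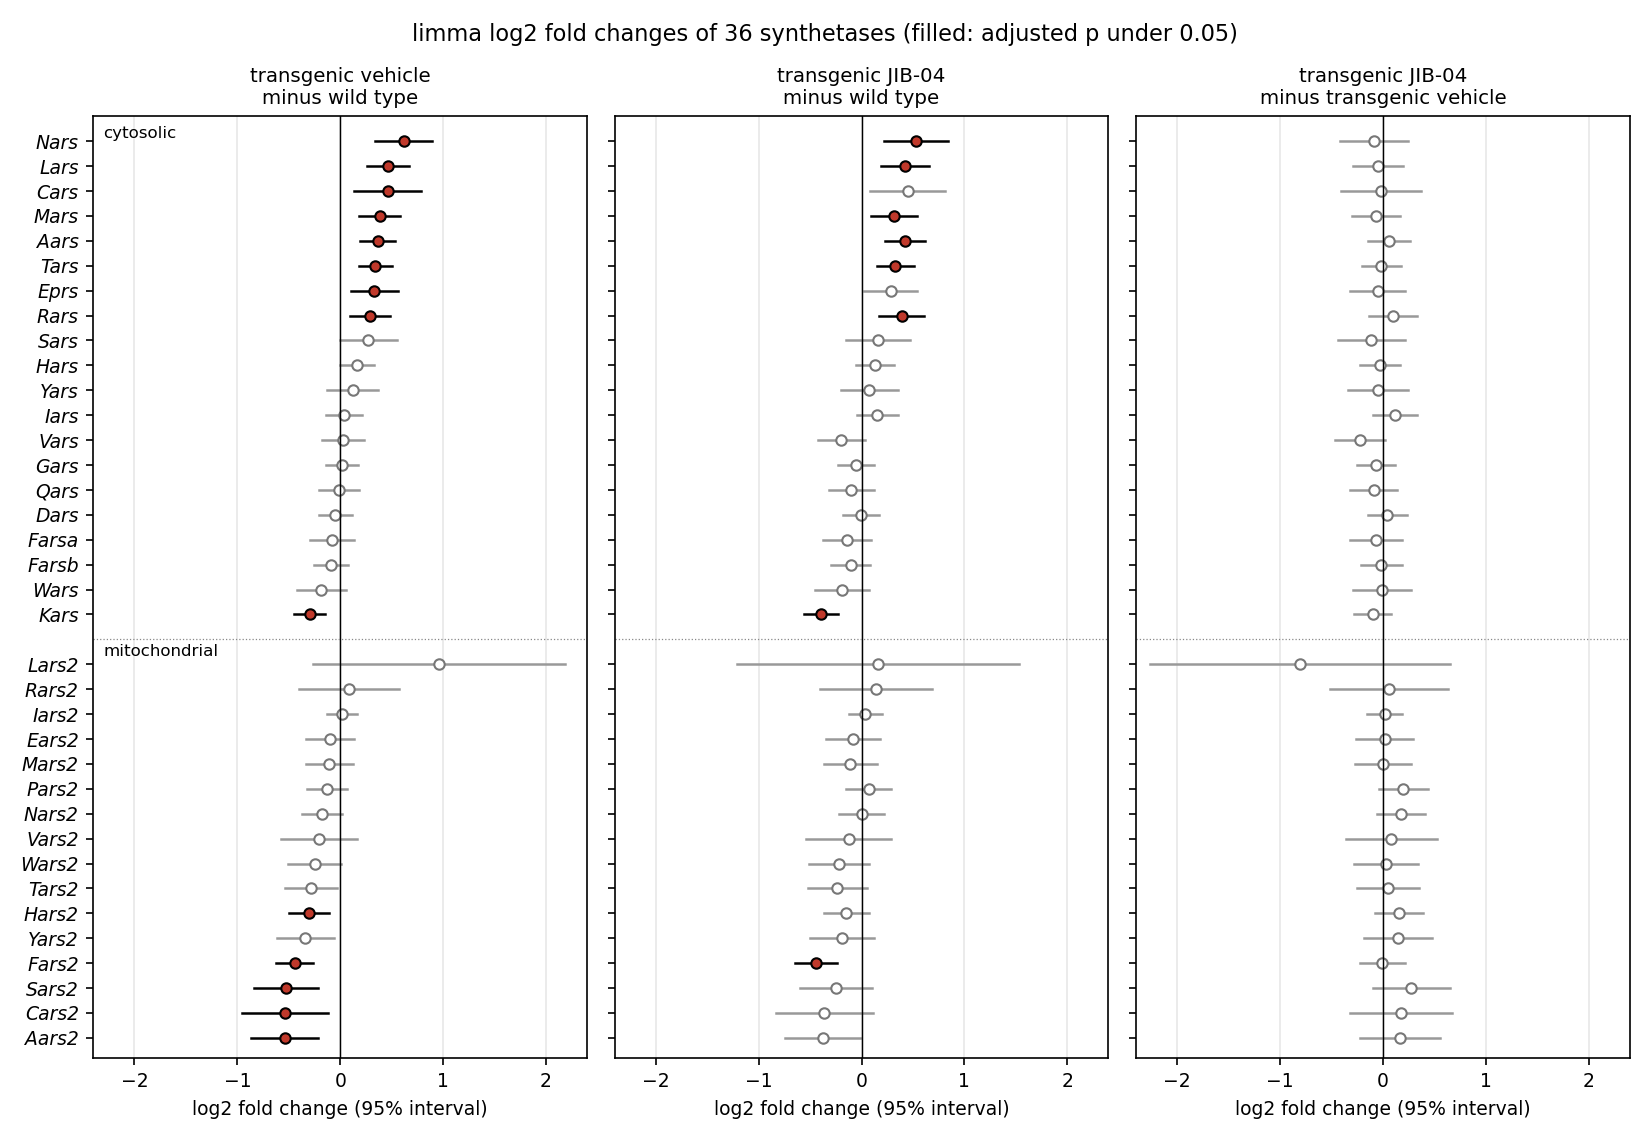
Log2 fold changes of the 36 synthetases with 95% intervals from limma, for transgenic vehicle minus wild type (left), transgenic JIB-04 minus wild type (middle) and transgenic JIB-04 minus transgenic vehicle (right). Filled points have an adjusted p under 0.05, of which there are 14, 8 and 0.

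Set against the same wild type hearts, the JIB-04 hearts had 6 cytosolic members higher and 1 lower, and 0 mitochondrial members higher and 1 lower. Of all genes tested, 17.4% were called higher and 14.8% lower here. JIB-04 hearts lay apart from wild type hearts on the higher side in 9 cytosolic and 0 mitochondrial members, against 28.4% of all genes, and on the lower side in 4 and 5, against 21.7%. The medians were 0.14 for the cytosolic and -0.14 for the mitochondrial members, against 0.04 for all genes, and with equal totals the mitochondrial median was 0.0015. Without transgenic vehicle heart 3 and JIB-04 heart 2, which leaves 1 JIB-04 heart, the medians were 0.075 for the cytosolic and -0.11 for the mitochondrial set. The median of all genes tested was 0.07 there. All 7 cytosolic calls and the mitochondrial one were also called in transgenic vehicle hearts, but the comparisons share their wild type hearts and are not independent of each other.

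Nars was at 43.8 and 43.7 FPKM in JIB-04 hearts, and rose by 0.53 ± 0.14 on the log2 scale against wild type (adjusted p = 0.0187). Lars was at 18.6 and 19.1 FPKM and rose by 0.42 ± 0.10 (adjusted p = 0.0137). Aars was at 18.8 and 19.5 FPKM and rose by 0.42 ± 0.08 (adjusted p = 0.00672). For these 3 genes both JIB-04 hearts lay above the wild type values given above. Rars, Tars and Mars were the other members that rose. Kars, at the JIB-04 values given above, fell by 0.40 (SE 0.07, adjusted p = 0.00474). Fars2 was at 28.4 and 23.1 FPKM in JIB-04 hearts and fell by 0.44 (SE 0.09, adjusted p = 0.0066). Aars2 had 7.43 and 6.65 FPKM in JIB-04 hearts, with a log2 fold change of -0.37 against wild type that was not called (adjusted p = 0.112).

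Without JIB-04 heart 1, Kars was the one cytosolic call left (1 of 20), and without JIB-04 heart 2 there were 0 calls in either set by limma. Each of these fits leaves 1 JIB-04 heart, which is assumed to vary like the hearts of the other groups. Leaving out transgenic vehicle heart 3, which enters through the shared estimate of spread and day, gave 4 mitochondrial calls. The ratio of cytosolic to mitochondrial mRNA was above that of wild type hearts for 15 of 16 amino acids in JIB-04 hearts, with a median difference of 0.30 and no overlap for 8. Against transgenic vehicle hearts the ratio in JIB-04 hearts was lower for 13 of 16 amino acids, with a median difference of -0.16. It did not overlap for 3, namely asparagine (-0.31), tyrosine (-0.24) and histidine (-0.20). For these counts too the share over other pairs of genes was not calculated. The differences from transgenic vehicle hearts include heart 3 of that group, and the ratios were not compared without it. Without that heart, the median log2 fold changes of JIB-04 against vehicle were 0.001 for the cytosolic and -0.007 for the mitochondrial members. A shift of the ratio with JIB-04 can therefore not be read from these counts.

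Genes that act with the synthetases were counted from lists of their pathways, to be read against the 20.3% of all genes called higher and 15.7% called lower in transgenic vehicle hearts. Of the 3 scaffold proteins of the multisynthetase complex, 0 were called in transgenic vehicle hearts. Without transgenic vehicle heart 3 and JIB-04 heart 2, 1 (Eef1e1) was called higher, in a fit where 19.5% of all genes tested were. Aimp1 was at 58.9, 54.5 and 70.3 FPKM in transgenic vehicle hearts and between 56.0 and 63.2 FPKM in wild type hearts, and Aimp2 at 22.9, 18.2 and 15.4 FPKM against 19.4 to 24.5 FPKM. Mitochondria make glutaminyl-tRNA through an amidotransferase (Qrsl1, Gatb and Gatc). Qrsl1 fell by 0.49 (SE 0.13, adjusted p = 0.0202) and Gatc by 0.35 (SE 0.07, adjusted p = 0.00593).

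Downstream of charging, the mitochondrial translation factors had 0 of 10 higher and 4 lower, with a median of -0.27. Tufm, the factor that brings charged tRNA to the mitochondrial ribosome, fell by 0.86 (SE 0.18, adjusted p = 0.0083). The initiation factor Mtif2 fell by 0.64 (SE 0.15, adjusted p = 0.0124) and the elongation factor Gfm1 by 0.55 (SE 0.15, adjusted p = 0.0194). The cytosolic elongation factors had 1 of 7 higher (Eef1a1, a cytosolic counterpart of Tufm, at 0.45 ± 0.11, adjusted p = 0.0168) and 1 lower (Eef1d, at -0.34 ± 0.07, adjusted p = 0.00657). Eef1a2, the other gene of the Eef1a pair, was not called, at -0.07 ± 0.09 (adjusted p = 0.595). Its mean over all hearts was 632.3 FPKM, against 456.4 FPKM for Eef1a1. Of 15 genes for tRNA maturation, export and proofreading, 6 rose and 1 fell. Dtd1, which removes D-amino acids from tRNA, rose by 0.88 ± 0.13 (adjusted p = 0.00146), Trit1, a tRNA isopentenyltransferase, rose by 0.75 ± 0.14 (adjusted p = 0.00403), and Hsd17b10, a subunit of mitochondrial RNase P, fell by 0.76 (SE 0.10, adjusted p = 0.000821). Without transgenic vehicle heart 3 and JIB-04 heart 2, 0 of 10 mitochondrial translation factors rose and 3 fell, 1 of 7 cytosolic elongation factors rose and 2 fell, and 5 of 15 tRNA maturation genes rose and 2 fell.

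Among genes of the integrated stress response, 22 of 24 were tested, and 7 rose while 0 fell in transgenic vehicle hearts, with a median of 0.28. The log2 fold change was above 0 in 16 of the 22 and below 0 in 6. Those not called ran from -0.28 (Vldlr) to 0.45 (Cebpb), with Asns at 0.07, Trib3 at 0.23 and Pck2 at -0.21. The chromatin protein gene Nupr1 rose by 1.75 ± 0.18 (adjusted p = 0.000253), the cytokine gene Gdf15 by 0.96 ± 0.26 (adjusted p = 0.0216) and the mitochondrial folate enzyme gene Mthfd2 by 0.87 ± 0.17 (adjusted p = 0.0052). Atf4 itself was at 74.4, 74.3 and 82.1 FPKM in transgenic vehicle hearts, against 54.0, 54.4, 49.6 and 45.3 FPKM in wild type hearts. The groups were well apart, and Atf4 mRNA rose by 0.61 ± 0.08 (adjusted p = 0.000899). ATF4 activity is set largely by translation of its mRNA, which these data do not measure. Of 11 amino acid transporters tested, 4 rose and 1 fell, led by Slc38a2, a neutral amino acid carrier, at 1.22 ± 0.12 (adjusted p = 0.000253), with Slc43a2 at 0.79 ± 0.16 (adjusted p = 0.00679) and Slc7a1, a carrier of cationic amino acids, at -1.11 ± 0.14 (adjusted p = 0.00081). No member of the scaffold, translation factor, tRNA maturation, stress response or transporter lists was called between JIB-04 and transgenic vehicle hearts (limma). In JIB-04 hearts against wild type, 9 of the 22 stress response genes were called, 8 higher and 1 lower, against 17.4% of all genes higher and 14.8% lower. With both hearts that stand apart left out, 7 of 21 stress response genes were higher and 2 lower (Eif4ebp1 and Vldlr) in transgenic vehicle hearts, 5 were higher and 0 lower in JIB-04 hearts, and 3 of 11 transporters were higher and 1 lower in transgenic vehicle hearts.

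ATF4 binds a C/EBP-ATF response element, whose core, taken as TGATGNAA, was searched on both strands of RefSeq promoter windows (GRCm38.p6, 250 bases before to 50 after each start). A window was found for 13 cytosolic and 14 mitochondrial members. None was found for Cars, Hars, Lars, Nars, Rars, Vars, Wars, Hars2 and Pars2. The search therefore leaves out Nars, Lars and Cars, the members with the largest called rises, and Rars, which rose as well. The core was present in 5 of 13 cytosolic genes and in 0 of 14 mitochondrial genes, against 4.51% of 27025 genes with a window. All 5 (Aars, Gars, Iars, Tars and Yars) belong to the 8 windows of synthetases described as ATF4 responsive. Starts are those of RefSeq, which for Aars lies 698 bases and for Yars 143 bases inside the gene's locus in the files, for Iars 30 bases inside it, and for Tars and Gars at its first base. The sequences of Aars and Tars are shown because both genes carry the core and rose in transgenic hearts. The first is the 250 bases before the RefSeq start of Aars (chr8:111033592-111033841, plus strand) and the next the same for Tars (chr15:11399659-11399908, minus strand), printed along the gene's strand with the core in capitals, which here reads on the opposite strand.
Aars: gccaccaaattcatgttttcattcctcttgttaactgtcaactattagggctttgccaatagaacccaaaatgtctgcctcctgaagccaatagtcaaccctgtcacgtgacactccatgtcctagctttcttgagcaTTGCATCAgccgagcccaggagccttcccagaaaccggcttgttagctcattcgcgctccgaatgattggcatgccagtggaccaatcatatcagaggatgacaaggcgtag
Tars: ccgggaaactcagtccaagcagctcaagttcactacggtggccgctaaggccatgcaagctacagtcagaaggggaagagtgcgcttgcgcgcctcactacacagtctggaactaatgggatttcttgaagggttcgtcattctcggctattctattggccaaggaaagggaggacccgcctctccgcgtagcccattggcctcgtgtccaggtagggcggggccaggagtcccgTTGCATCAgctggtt

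The remaining matches are given as stretches of 30 bases around the core, to compare genes that hold it without having been called. They are Gars (chr6:55037960-55037989, plus strand), Iars (chr13:49682126-49682155, plus strand), Yars (chr4:129189895-129189924, plus strand), and the other match of Aars (chr8:111033840-111033869, plus strand).
Gars: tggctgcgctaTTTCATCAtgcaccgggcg
Iars: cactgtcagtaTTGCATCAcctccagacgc
Yars: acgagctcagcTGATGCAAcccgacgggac
Aars, downstream match: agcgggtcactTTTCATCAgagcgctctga

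The core began 112 bases before the start in Aars and 15 bases before it in Tars, and at -30 in Gars, while the matches in Iars (8), Yars (4) and the downstream one in Aars (10) lay after the start. Aars and Tars rose, and Gars, Iars and Yars had log2 fold changes of 0.02, 0.04 and 0.12 that were not called. Mars and Eprs, whose windows hold no core, rose as well. A match is a string of letters in the reference and does not show binding. For comparison, and chosen after the data were seen, the core GCGCNTGCGC of NRF1, a regulator of nuclear genes for mitochondria, was found in 3 of 13 cytosolic and 2 of 14 mitochondrial genes, against 5.19% of all genes. No match of one core overlapped a match of the other.

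Markers of other cell types were also called, to be read against 20.3% of all genes higher and 15.7% lower, and in whole hearts fewer cells of a type and less RNA per cell cannot be told apart. Of 8 fibroblast markers 4 rose and 0 fell in transgenic vehicle hearts, with summed FPKM of 711.9 to 716.8 in JIB-04 hearts, 641.5 to 676.9 in transgenic vehicle hearts and 291.1 to 368.6 in wild type hearts. In transgenic vehicle heart 3 that sum was mostly Dcn (decorin, 567.1 FPKM), and the median of the 8 markers was 17.4 FPKM there, against 42.0 and 54.7 FPKM in transgenic vehicle hearts 1 and 2 and 14.8 to 18.1 FPKM in wild type hearts. Its collagen genes Col1a1 (9.67 FPKM) and Col3a1 (14.1 FPKM) were below every wild type heart. With both hearts that stand apart left out, 7 of 8 fibroblast markers rose and 0 fell, 1 of 8 endothelial markers rose and 7 fell, and 0 of 10 cardiomyocyte markers rose and 5 fell, and of 8 macrophage markers 0 rose and 1 fell (Csf1r). Of 10 cardiomyocyte markers 0 rose and 5 fell. Of 8 endothelial markers 1 rose and 6 fell, and of 7 smooth muscle and pericyte markers 1 rose and 4 fell. Of 8 macrophage and 5 tested erythroid markers 0 were called, and lymphocyte markers summed to 2.17 to 3.71 FPKM in transgenic vehicle hearts and 2.85 to 4.98 in wild type hearts. No marker of the fibroblast, endothelial or macrophage lists was at 0 in any heart. In JIB-04 hearts against wild type, 5 fibroblast markers rose and 0 fell, 1 endothelial marker rose and 7 fell, and 0 cardiomyocyte markers rose and 4 fell, against 17.4% of all genes higher and 14.8% lower. The part of these shifts in the synthetase levels was not tested.

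The libraries do not keep strand, so reads in exons shared with a neighbour cannot be assigned to one gene. Mars shares 68 exon bases with Ddit3 on the opposite strand, a stress response gene that was itself higher in transgenic vehicle hearts (0.66 ± 0.07, adjusted p = 0.000419). Hars and Hars2 share 195 bases head to head, Aars shares 14.3% of its exon bases with Exosc6, Fars2 8.72% with Nrn1, Cars2 5.83% with Naxd, and Iars2 22.9% with Rab3gap2. These overlaps come from a GENCODE annotation, in which Fars2 runs on to base 36726280, past the end of its deposited locus at 36537592. Whether the Nrn1 overlap lies within that locus was not examined. Kars, Tars, Eprs, Rars, Aars2 and Sars2 share none. Lars2 has a stretch of 72 bases that matches Gm15564 at 98.6% identity, a gene at 0.01 to 0.39 FPKM in these hearts. What that stretch adds to the spread of Lars2 was not tested. The files place Kars at chr8:111993440-112011323, Tars at chr15:11383663-11399658, Aars at chr8:111033144-111057664, Aars2 at chr17:45506841-45520842, Sars2 at chr7:28741968-28753879 and Fars2 at chr13:36117411-36537592 (GRCm38), all protein coding.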

How the data were processed

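The authors deposited 1 file per heart with log2 FPKM values per gene, per the file headers. The submitters' processing notes name STAR 2.7.1a, Picard, GATK 4.1.2, Cufflinks 2.2.1 and GRCm38. Total counts are not given in the sources used here, and the constant of 1 in log2(FPKM + 1) was read from genes at 0. The kit was non-directional, per the labels' protocols. The 13487 of 43154 genes that reached 1 FPKM in 2 or more of the 9 hearts were fitted together with limma 3.58.1 (R 4.3.3, empirical Bayes with trend) on group and postnatal day, with 5 residual degrees of freedom and Benjamini-Hochberg adjustment over all genes at 0.05. The script was tested on simulated data. Summaries used Python 3.11.15, pandas 2.3.3, numpy 2.4.6, scipy 1.17.1 and matplotlib 3.10.9, and similar transcripts were sought with BLAST 2.17.0.

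The members and lists were chosen with earlier results of these data known. Per-heart values are given for called members in order of absolute log2 fold change (up to 6 per compartment in transgenic vehicle against wild type, up to 4 in JIB-04 against wild type), for up to 3 per compartment by unadjusted p in JIB-04 against vehicle, and for a called member opposite in direction to most of its compartment. Other lists give up to 3 called genes by absolute log2 fold change, or the 2 with the highest mean where none was called. Alternatives changed the constant, filter, scaling, model terms and hearts used. One of the amino acid transporters on the list, Slc7a5, was not analysed here. Mars was matched to promoters as Mars1. Protein sequences were not used here. The count for one list of mitochondrial tRNA charging genes is not reported here.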

Additional observations from a re-analysis of the deposited data

Results flagged for a closer look

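In groups of 4 wild type hearts, 4 of the 36 synthetases had 1 heart far from the other 3, by the gap to the nearest heart over the whole range (Dixon's criterion), which chance alone gives in about 1 in 20 groups. Kars was lowest in wild type heart 1 at 50.84 FPKM, with the others up to 53.99 FPKM. Sars was lowest in wild type heart 4 at 33.44 FPKM, with the others up to 38.07 FPKM. Fars2 was lowest in wild type heart 3 at 31.85 FPKM, with the others up to 36.56 FPKM. Lars2 was highest in wild type heart 2 at 45.82 FPKM, with the lowest at 29.89 FPKM. These are 4 different hearts. Kars and Fars2 remained called lower in transgenic vehicle hearts without any single heart, and the cause of these values was not tested.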

How the results depend on the processing

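Over 23 alternatives, 0 of the 22 calls of single synthetases changed direction, but none was kept under all of them, because all 22 were lost with day 158 hearts only, where 5 hearts remain. Equal summed FPKM lost 8, no filter on low values 7, and leaving out transgenic vehicle heart 3 with JIB-04 heart 2 lost 8.

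For transgenic vehicle against wild type, the 9 cytosolic calls became 0 with day 158 hearts only and 5 to 8 with 1 heart left out. The 5 mitochondrial calls became 2 with no filter, 0 with equal totals, 8 with quantile normalization, 0 with day 158 hearts only, 3 without the hearts of large mitochondrial share, and 1 to 7 with 1 heart left out. With equal totals the cytosolic calls were 10 higher and 0 lower, in place of 8 and 1. The cytosolic median of 0.14 was 0.35 with equal totals, 0.094 with median of ratios and 0.084 with quantile normalization, and the mitochondrial median of -0.23 was -0.041 with equal totals.

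For JIB-04 against vehicle, the cytosolic median of -0.05 was -0.10 with equal totals, -0.0054 with equal totals computed without mitochondrial and the 20 highest genes, -0.0034 without both hearts, and -0.0805 to 0.001 with 1 heart left out. The mitochondrial median of 0.07 was -0.007 to 0.15 with 1 heart left out.

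For JIB-04 against wild type, the 7 cytosolic calls became 0 with day 158 hearts only, 4 without both hearts and 0 to 9 with 1 left out. The cytosolic median of 0.14 was 0.30 with equal totals, 0.10 with median of ratios, 0.11 with quantile normalization, 0.22 with equal totals without the highest genes, 0.18 with day 158 hearts only, 0.075 without both hearts, and 0.095 to 0.16 with 1 left out. The single mitochondrial call became 0 with equal totals, with day 158 hearts only or without both hearts, 4 with only the compared groups, and 0 to 4 with 1 left out. The mitochondrial median of -0.14 was 0.0015 with equal totals. Beyond the settings that use fewer hearts or genes, the cause was not tested.

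Deviations from the group means correlated at -0.186 to 0.432 over 7 pairs of hearts with the same number. The 2 JIB-04 hearts deviate from their mean by equal and opposite amounts. Their correlations therefore mirror each other (0.358 and -0.358 with transgenic vehicle heart 3) and cannot decide a pairing. Between transgenic vehicle and wild type hearts of the same number, the correlations were 0.0835, 0.0188 and 0.178. Whether hearts are paired, by number or otherwise, was not settled. With the replicate block in place of day, transgenic vehicle against wild type had 7 cytosolic and 7 mitochondrial calls, JIB-04 against wild type 6 and 3, and JIB-04 against vehicle 0 and 0. Depth as counts is unknown, and 2 JIB-04 hearts limit the precision of every comparison with the compound.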
